A study of Mus musculus with 8 samples.

Results

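The 9 genes described here encode kinases that phosphorylate splicing factors and a family of RNA-binding splicing regulators. They are the CDC-like kinase genes Clk1, Clk2, Clk3 and Clk4, the SR protein kinase genes Srpk1 and Srpk2, and Rbm5 with its relatives Rbm6 and Rbm10. They were chosen by name and make up 9 of the 18137 genes that could be named in the table. They correspond to 48 of its 51169 transcripts. The choice was made with earlier results of the swimming and sedentary comparison known, so the difference between the groups is given for these genes as a description. Where they are counted in the fits over all genes or all transcripts, nothing is read from their p-values. RNA came from hearts of wild-type (WT) mice, 4 samples after swimming training and 4 from sedentary mice, and the study's title concerns aging hearts. The labels call the samples biological replicates. The sources used here give no age, sex or length of training and do not say whether each sample is 1 mouse, so the spread between samples may be partly technical. RNA was cleared of ribosomal RNA and copied with random primers, and the table gives FPKM, fragments counted per transcript and divided by transcript length and library size, so that levels can be set side by side between genes. Because the RNA came from heart tissue with its cell types mixed, fewer cells of a type and less RNA per cell cannot be told apart.

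SR proteins carry stretches rich in arginine and serine, and their phosphorylation controls where they sit in the cell and how they choose exons. SRPK kinases add phosphate mainly in the cytoplasm, which lets SR proteins enter the nucleus, and CLK kinases act on them inside the nucleus and release them from storage speckles. RBM5, RBM6 and RBM10 bind RNA and the spliceosome and shift the choice between including and skipping an exon, known best from human cells for the apoptosis genes FAS and CASP2 and for NUMB. CLK genes are also known to control their own transcripts. When exon 4 is skipped, the reading frame is lost before the kinase domain and the RNA becomes a candidate for nonsense-mediated decay (NMD), which destroys messages with an early stop codon.

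Exon 4 is shown for the 4 Clk genes because its presence separates their full-length transcripts from their decay transcripts. It has 91 bases in Clk1 (chr1:58420121-58420211, minus strand), 85 in Clk2 (chr3:89169618-89169702, plus strand), 97 in Clk3 (chr9:57758627-57758723, minus strand) and 91 in Clk4 (chr11:51273078-51273168, plus strand), so that in no case is it a multiple of 3. Coordinates and sequences are from the GENCODE M21 annotation on build GRCm38 (mm10). Capitals mark the 6 bases at which the Clk1 and Clk4 exons differ from each other.
Clk1 exon 4: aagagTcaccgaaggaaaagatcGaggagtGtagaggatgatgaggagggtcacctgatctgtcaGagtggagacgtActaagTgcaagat
Clk4 exon 4: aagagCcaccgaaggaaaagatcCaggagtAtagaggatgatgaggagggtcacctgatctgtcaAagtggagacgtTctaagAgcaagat
Clk2 exon 4: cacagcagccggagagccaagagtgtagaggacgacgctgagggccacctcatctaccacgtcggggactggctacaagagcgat
Clk3 exon 4: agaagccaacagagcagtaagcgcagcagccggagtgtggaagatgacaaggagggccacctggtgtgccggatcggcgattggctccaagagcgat

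In the annotation Clk1-201, with the exon, encodes 483 codons, and Clk1-210, which is the same transcript without it, ends after 135. The corresponding figures are 498 and 136 codons for Clk2-201 and Clk2-204. Clk4 differs in the annotation. Its decay transcript Clk4-212, also without exon 4, has 105 codons, fewer than the 128 that precede the exon in Clk4-201. The Clk1 and Clk4 exons were 93.4% identical, and the encoded proteins 78.03% identical over 478 aligned residues, against 56.3% for Clk1 with Clk2 and 51.8% for Clk1 with Clk3. Reads of Clk1 and Clk4 from such stretches could be shared between the genes by the authors' counting. CLK kinases are also called LAMMER kinases after a signature of 6 residues in the kinase domain. The coding stretch around it is shown because it separates Clk3 from the other members, with the bases of the signature in capitals. It lies in exon 11 of each gene, at chr1:58412979-58413011 in Clk1, chr3:89175407-89175439 in Clk2, chr9:57752147-57752179 in Clk3 and chr11:51280373-51280405 in Clk4.
Clk1: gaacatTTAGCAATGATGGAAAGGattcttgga
Clk2: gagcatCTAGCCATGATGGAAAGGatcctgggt
Clk3: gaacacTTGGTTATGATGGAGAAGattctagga
Clk4: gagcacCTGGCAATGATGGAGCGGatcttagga
The translated signature is complete in Clk1, Clk2 and Clk4, and differs at 2 of its 6 residues in Clk3. Between genes the 33 bases differed at 6 (Clk1 and Clk2) to 11 positions (Clk2 and Clk3).

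Rbm5 has a comparable exon. Its exon 6 has 74 bases (chr9:107759776-107759849, minus strand) and is missing from the decay transcript Rbm5-210, which ends after 150 codons, while Rbm5-201 encodes 814. It is shown because Rbm5-210 carries a large share of the difference between the groups.
Rbm5 exon 6: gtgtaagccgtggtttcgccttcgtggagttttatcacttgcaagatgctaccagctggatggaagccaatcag
The RBM5 protein was 61.0% identical to RBM10 over 751 aligned residues and 39.5% identical to RBM6 over 668. The proteins of Srpk1 and Srpk2 were 64.2% identical over 625 residues.

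The table listed 48 of the 117 annotated transcripts of these genes, 36 protein-coding and 12 annotated for nonsense-mediated decay, and 0 retained-intron transcripts. Over all genes it held 38 retained-intron transcripts among 51169. The 0 is therefore a limit of the table and cannot show that such RNA was absent, and shares given below are of listed transcripts. All 9 genes were above 0 in every library. Averaged over the 8 libraries, Srpk2 had the highest level at 12.5 FPKM, followed by Clk1 at 11.4, Srpk1 at 7.62, Clk4 at 6.93, Rbm5 at 4.37, Clk3 at 3.15, Clk2 at 2.43, Rbm6 at 0.943 and Rbm10 at 0.774. Several neighbours in this order were not apart beyond their spread. Srpk2 exceeded Clk1 in 5 of 8 libraries, Srpk1 exceeded Clk4 in 4, Clk4 exceeded Rbm5 in 6, Rbm5 exceeded Clk3 in 5 and Rbm6 exceeded Rbm10 in 6. Clk1 was above Srpk1, Clk3 above Clk2 and Clk2 above Rbm6 in 8 of 8 libraries.

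**Figure D1:**
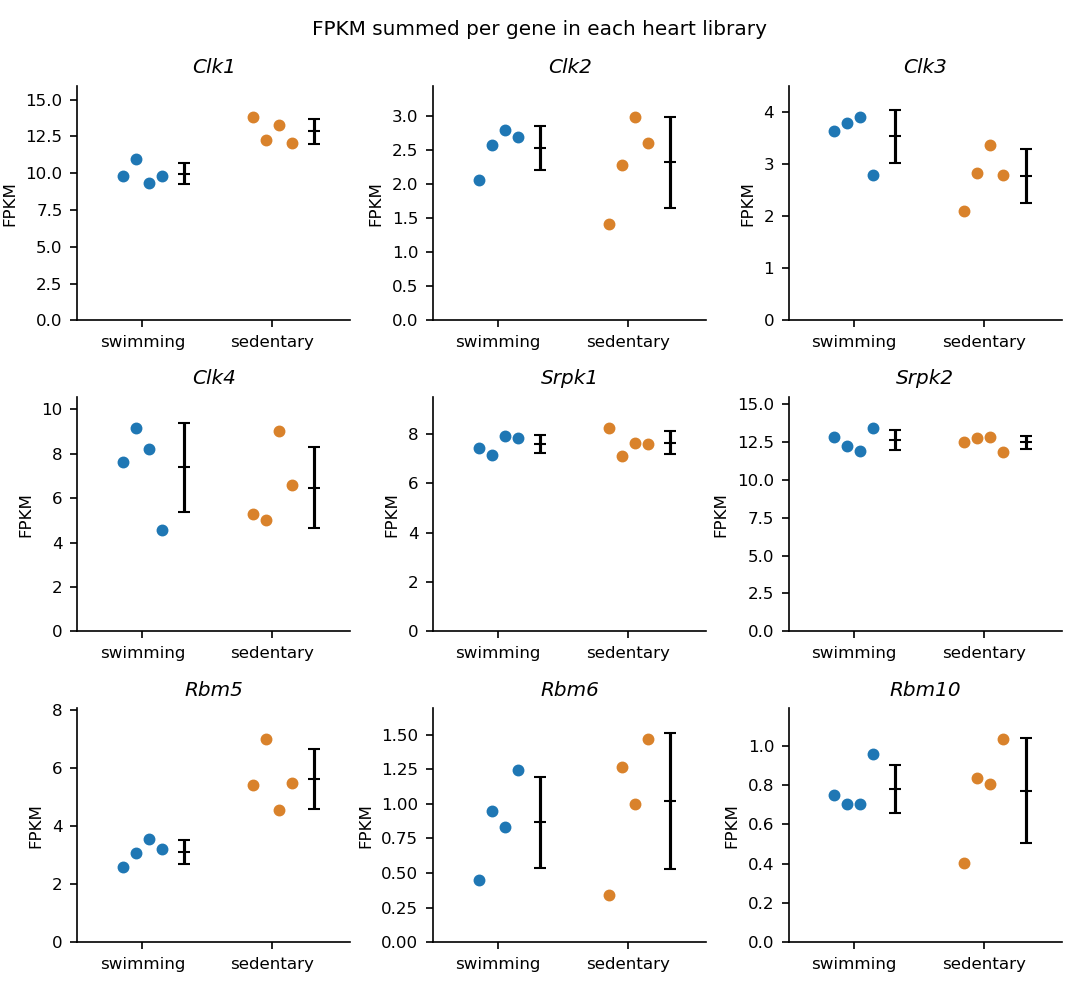
FPKM summed over the transcripts of each gene (vertical axes, starting at 0) in the 4 swimming and 4 sedentary libraries (points), with the mean and SD beside each group. The points of the groups are apart for Clk1, between 9.33 and 10.99 in swimming and 12.0 and 13.9 in sedentary hearts, and for Rbm5, and overlap in the other panels.

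Among the CLK kinases, Clk1 (ENSMUSG00000026034, chromosome 1, 58410189 to 58424066, minus strand) was the most abundant and had 9.79, 10.99, 9.33 and 9.81 FPKM in swimming replicates 1 to 4 and 13.9, 12.3, 13.2 and 12.0 FPKM in sedentary replicates 1 to 4. The groups did not overlap, swimming being the lower. The means were 9.98 ± 0.709 and 12.8 ± 0.851 FPKM (SD, n = 4 each), so that swimming hearts held 77.7% of the sedentary level, with a log2 fold change of -0.35 (SE 0.0700) on the scale of log2(FPKM + 0.5).

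Clk3 (chromosome 9, 57750624 to 57765860, minus strand) had its means the other way round. It was at 3.62, 3.78, 3.91 and 2.80 FPKM in swimming and at 2.10, 2.83, 3.36 and 2.79 FPKM in sedentary hearts. Swimming replicate 4 lay among the sedentary libraries, and the log2 fold change was 0.30 (SE 0.143). Clk3 overlaps Edc3, which lies on the opposite strand and had 3.21 to 3.62 FPKM in swimming and 2.56 to 3.16 FPKM in sedentary hearts. Strandedness of the libraries is not stated in the labels, so reads from the overlap could have been counted for either gene.

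Clk4 (chromosome 11, 51261730 to 51281766, plus strand) varied most among the abundant members, with 7.61, 9.17, 8.19 and 4.56 FPKM in swimming hearts and 5.29, 4.996, 9.0004 and 6.603 FPKM in sedentary hearts. The lowest and the second highest of the 8 values were swimming replicate 4 and sedentary replicate 3, and the groups overlapped throughout (log2 fold change 0.17, SE 0.243). Clk2 (chromosome 3, 89164795 to 89176921, plus strand) had 2.06, 2.57, 2.79 and 2.68 FPKM in swimming hearts and 1.42, 2.28, 2.99 and 2.60 FPKM in sedentary hearts. Its lowest and highest values were both sedentary, and its log2 fold change was 0.13 (SE 0.186).

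The SR protein kinases had the log2 fold changes closest to 0 of the 9. Srpk1 (chromosome 17, 28587648 to 28622709, minus strand) had 7.43, 7.14, 7.93 and 7.85 FPKM in swimming hearts and 8.26, 7.12, 7.64 and 7.59 FPKM in sedentary hearts. Srpk2 (chromosome 5, 23503264 to 23684617, minus strand) had 12.8, 12.2, 11.9 and 13.4 FPKM in swimming hearts and 12.5, 12.7, 12.8 and 11.8 FPKM in sedentary hearts. Both genes overlapped between the groups. Their log2 fold changes were -0.01 (SE 0.0627) for Srpk1 and 0.01 (SE 0.0545) for Srpk2, each smaller than its standard error. A single full-length coding transcript held most of the listed FPKM of each gene. Srpk1-204 had 5.68 to 6.35 FPKM in swimming and 5.55 to 6.07 FPKM in sedentary hearts. Srpk2-201 had 11.8 to 12.9 FPKM in swimming and 11.6 to 12.4 FPKM in sedentary hearts. Srpk2 overlaps Kmt2e on the opposite strand.

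Rbm5 (ENSMUSG00000032580, chromosome 9, 107740371 to 107770996, minus strand) stood furthest apart. It had 2.60, 3.08, 3.58 and 3.21 FPKM in swimming replicates 1 to 4 and 5.44, 7.03, 4.55 and 5.49 FPKM in sedentary replicates 1 to 4. Again the groups did not overlap, and swimming was the lower. The means were 3.12 ± 0.404 FPKM in swimming and 5.63 ± 1.03 FPKM in sedentary hearts (SD, n = 4 each), which is 55.4% of the sedentary level and a log2 fold change of -0.75 (SE 0.135). Rbm5 overlaps the antisense gene Gm37850 on the opposite strand, for which no level is available here. As strandedness is not stated, reads from that overlap could have been counted for Rbm5.

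Its relatives did not share this separation. Rbm6, which lies next to Rbm5 on the same strand (chromosome 9, 107773559 to 107873237), had 0.447, 0.946, 0.830 and 1.24 FPKM in swimming hearts and 0.343, 1.27, 0.995 and 1.47 FPKM in sedentary hearts. Rbm10 (chromosome X, 20617503 to 20650901, plus strand) had 0.749, 0.701, 0.703 and 0.957 FPKM in swimming hearts and 0.401, 0.838, 0.807 and 1.04 FPKM in sedentary hearts. Replicate 1 of the sedentary hearts was the lowest of the 8 libraries in both genes, as it was in Clk2 and Clk3. Rbm10 overlaps Ndufb11, a gene of the respiratory chain on the opposite strand with 22.7 to 42.2 FPKM in swimming and 35.2 to 55.5 FPKM in sedentary hearts. The log2 fold changes were -0.12 (SE 0.296) for Rbm6 and 0.03 (SE 0.169) for Rbm10.

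In the fit over all genes, 0 of the 9 members passed at a limma adjusted p below 0.05, and the lowest adjusted p among them was 0.434. Of all 11674 genes tested 2 passed, 0.0171%, both higher in swimming hearts, and 0.00% were lower. At an unadjusted p below 0.05 there were 2 members, Clk1 and Rbm5, and 860 genes in all. The groups did not overlap with swimming below sedentary in 2 of 9 members, against 1.58% of all genes tested, and with swimming above sedentary in 0 of 9, against 3.24%. Since the genes were chosen with this contrast known, nothing is read from these counts. Log2 fold changes were negative for 4 and positive for 5 members. Their median was 0.01, and that of all genes 0.03.

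**Figure D2:**
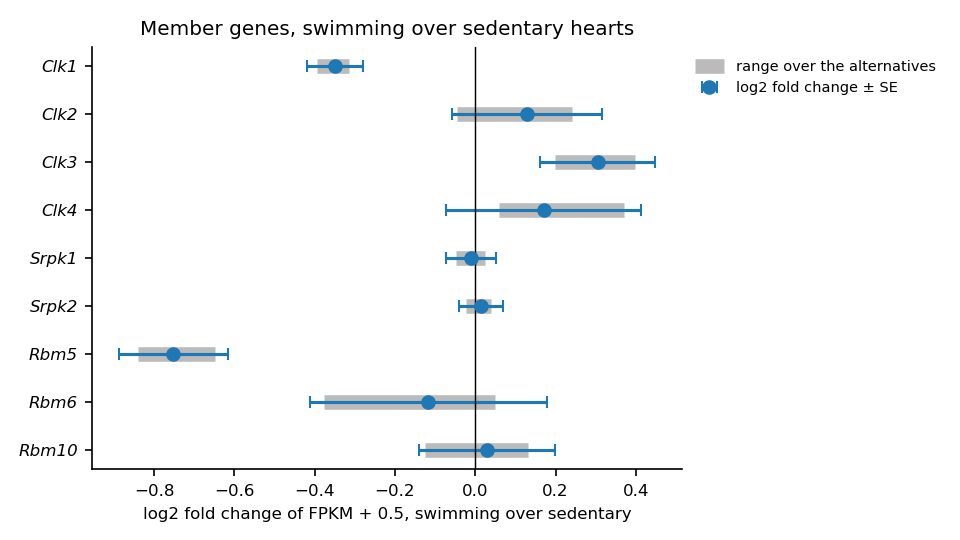
Log2 fold change of each gene, swimming over sedentary, on the scale of log2(FPKM + 0.5) (horizontal axis), with its standard error and, in grey, the range over the alternative settings. Rbm5 at -0.75 and Clk1 at -0.35 keep their whole range below 0, Clk3 and Clk4 keep theirs above 0, and the other ranges cross 0.

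Transcripts of Clk1 fall into the full-length Clk1-201 and the decay transcripts Clk1-210, which lacks exon 4, and Clk1-211, which lacks exon 4 and a further exon. Clk1-201 was at 4.82, 4.76, 9.26 and 3.01 FPKM in swimming hearts and at 4.79, 4.93, 6.39 and 5.67 FPKM in sedentary hearts. Clk1-210 was at 4.96, 4.004, 0 and 4.21 FPKM in swimming hearts and at 6.18, 7.35, 4.16 and 6.35 FPKM in sedentary hearts. Swimming replicate 3 therefore had the highest full-length value and was listed at 0 for Clk1-210, although its gene sum was close to those of the other swimming libraries. Clk1-211 was listed between 2.23 and 2.88 FPKM in 4 libraries, swimming replicates 2 and 4 and sedentary replicates 1 and 3, and in the other 4 it did not exceed 0.0671 FPKM.

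The mean of Clk1-201 was 5.46 FPKM in swimming and 5.44 FPKM in sedentary hearts, and that of the decay transcripts together 4.52 FPKM in swimming and 7.404 FPKM in sedentary hearts, so that on these means the lower Clk1 sum lay in the decay transcripts. This division rests on swimming replicate 3. Without it the swimming means were 4.20 FPKM for Clk1-201 and 5.999 FPKM for the decay transcripts (n = 3), both below the sedentary means. The gene sum did not depend on that library, and neither Clk1-201 nor the sum of the decay transcripts was free of overlap between the groups.

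**Figure D3:**
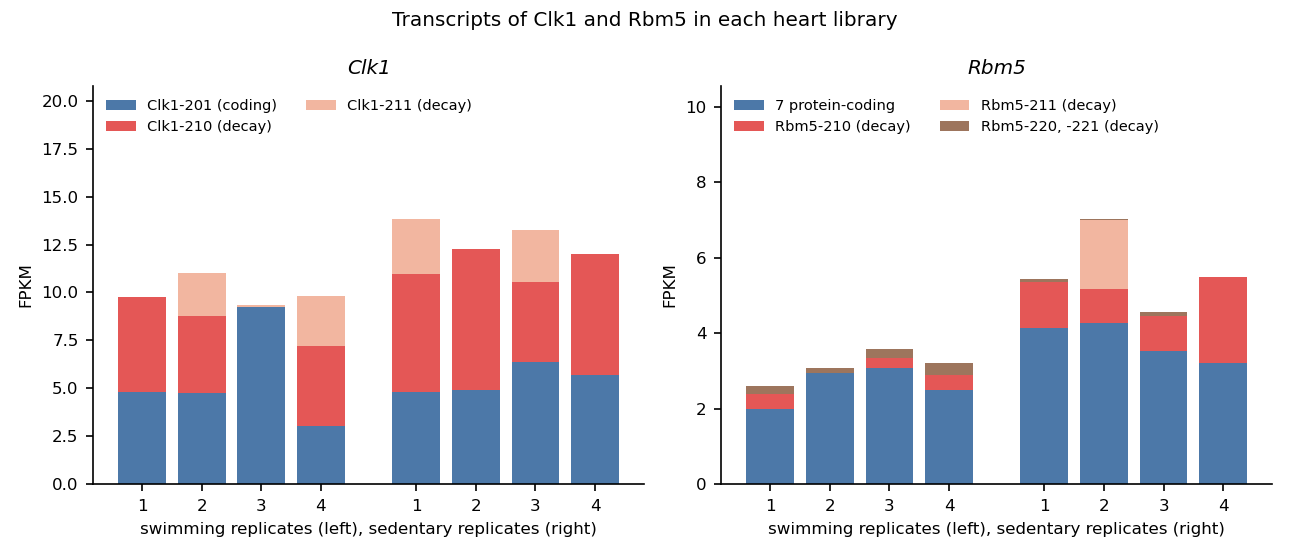
FPKM of the transcripts of Clk1 (left) and Rbm5 (right) stacked in each library, swimming replicates 1 to 4 on the left and sedentary replicates 1 to 4 on the right of each panel. The decay transcripts of Clk1 are nearly missing in swimming replicate 3, at 0.0671 FPKM, and Rbm5-210 is between 0 and 0.398 FPKM in swimming and between 0.901 and 2.27 FPKM in sedentary hearts.

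In Rbm5 the difference lay in both kinds of transcript. The 7 protein-coding transcripts summed to 1.9999, 2.94, 3.06 and 2.501 FPKM in swimming hearts and to 4.14, 4.26, 3.52 and 3.22 FPKM in sedentary hearts. The 4 decay transcripts summed to 0.604, 0.136, 0.519 and 0.707 FPKM in swimming hearts and to 1.30, 2.77, 1.04 and 2.27 FPKM in sedentary hearts. Neither sum overlapped between the groups. Of the difference of -2.51 FPKM between the means of the gene, 46.0% lay in the coding and 54.0% in the decay transcripts. This division leans in part on sedentary replicate 2. It alone held Rbm5-211, a decay transcript, at 1.84 FPKM, and it had the highest value of the coding Rbm5-201, 2.44 FPKM. The decay share of the gene was 16.0 ± 8.65% in swimming and 31.9 ± 9.91% in sedentary hearts (SD, n = 4 each), and the groups overlapped in it, since swimming replicate 1 at 23.2% lay above sedentary replicate 3 at 22.7%.

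Rbm5-210, the transcript with the highest mean among those without exon 6, was at 0.379, 0, 0.280 and 0.398 FPKM in swimming hearts. In sedentary hearts it was at 1.23, 0.901, 0.926 and 2.27 FPKM. The groups did not overlap. Rbm5-211, another decay transcript, was listed at 1.84 FPKM in sedentary replicate 2 and at 0 in the other 7 libraries. The decay transcript Rbm5-221, too low to enter the fit, ran the other way, with 0.186, 0.136, 0.192 and 0.233 FPKM in swimming hearts and 0.0684, 0.0332, 0.109 and 0 FPKM in sedentary hearts. Rbm5-220, a decay transcript that also lacks exon 6, did not exceed 0.0755 FPKM in swimming or 0.0039 FPKM in sedentary hearts. Among the coding transcripts the full-length Rbm5-201 was at 0.523, 0.466, 0.577 and 0.583 FPKM in swimming hearts and at 0.632, 2.44, 0 and 0.506 FPKM in sedentary hearts, and sedentary replicates 2 and 3 held both its highest and its lowest value. The short coding transcript Rbm5-205, near the 3' end of the gene, was at 0.966 to 1.33 FPKM in swimming and at 0.915 to 1.57 FPKM in sedentary hearts, and overlapped.

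Of the 48 member transcripts, 19 reached a mean of 0.5 FPKM and entered the fit over all transcripts. In it 0 of 19 passed at a limma adjusted p below 0.05, where 12 of 22614 transcripts passed, 0.0531%, with 0.0265% higher and 0.0265% lower in swimming hearts. At an unadjusted p below 0.05 there were 2 member transcripts, Rbm5-210 and Clk3-204, and 1245 in all. Rbm5-210 was the 1 member transcript tested with swimming below sedentary and no overlap (1.40% of all transcripts tested), and Clk3-204 the 1 with swimming above sedentary and no overlap (2.60%). Clk3-204, a short coding transcript that ends before exon 4, was at 1.09, 1.63, 1.04 and 0.999 FPKM in swimming hearts and at 0.748, 0.651, 0.998 and 0.507 FPKM in sedentary hearts. Swimming replicate 4 and sedentary replicate 3 were nearly level. These counts come from the contrast that led to the choice of genes and are given as a description.

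Among the listed transcripts, Clk1 left out exon 4 in a larger share of its FPKM than the other Clk genes. Taken over transcripts that span the exon, the share was 50.7%, 56.7%, 0.719% and 69.3% in swimming and 65.4%, 59.9%, 51.8% and 52.8% in sedentary hearts for Clk1. For Clk4 it was 17.7%, 24.3%, 20.5% and 16.0% in swimming and 26.8%, 8.30%, 16.4% and 33.1% in sedentary hearts. The Clk4 share includes Clk4-203, which lacks the exon but is annotated as coding, and which had 0.209 FPKM in sedentary replicate 4. Clk3 had 19.5%, 3.71%, 8.72% and 17.9% in swimming and 11.02%, 15.9%, 8.96% and 22.2% in sedentary hearts. Clk2 had 0%, 22.4%, 29.9% and 19.6% in swimming and 0%, 20.4%, 30.4% and 24.02% in sedentary hearts. In every gene the groups overlapped. In 7 of the 8 libraries the Clk1 share was above those of Clk2, Clk3 and Clk4, and swimming replicate 3 was the exception.

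**Figure D4:**
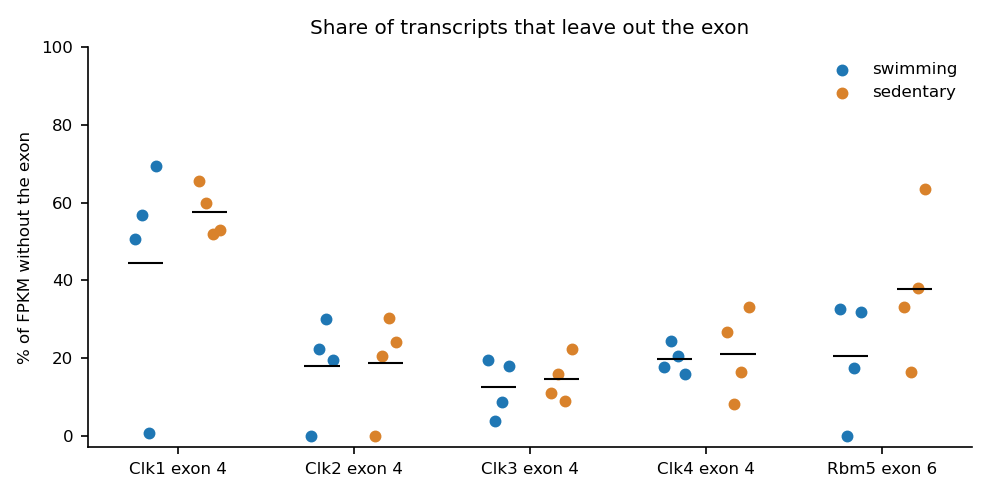
Percent of FPKM in transcripts that leave out exon 4 of each Clk gene or exon 6 of Rbm5, among transcripts that span the exon (vertical axis), for each swimming and sedentary library (points) with group means (bars). Clk1 lies between 50.7% and 69.3% in all libraries but swimming replicate 3, and the groups overlap for each exon.

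For exon 6 of Rbm5 the share without the exon was 32.7%, 0%, 17.4% and 31.9% in swimming hearts and 33.2%, 16.4%, 38.1% and 63.6% in sedentary hearts. The groups overlapped here as well. Transcripts with the exon summed to 0.861, 1.51, 1.55 and 1.01 FPKM in swimming hearts and to 2.48, 4.61, 1.504 and 1.30 FPKM in sedentary hearts. The Clk4 transcript with the highest mean was Clk4-202, a coding transcript that starts downstream of exon 4 and was at 4.98, 5.56, 4.15 and 1.70 FPKM in swimming and at 3.36, 1.53, 5.24 and 3.38 FPKM in sedentary hearts. The full-length Clk4-201 was at 2.17 to 3.21 FPKM in swimming and 1.41 to 3.18 FPKM in sedentary hearts.

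The substrates and partners of these enzymes did not pass the fit over all genes. Of 11 SR protein genes, 9 were tested, and 0 were higher and 0 lower at a limma adjusted p below 0.05. Their median log2 fold change was 0.05, and 2 had an unadjusted p below 0.05. Over all genes 860 of 11674 did, which is the background for the counts of the lists below as well. Srsf2, an SR protein that stays in the nucleus, had 40.2, 33.5, 38.9 and 33.5 FPKM in swimming hearts and 40.8, 40.6, 42.3 and 43.1 FPKM in sedentary hearts (limma adjusted p = 0.657). It was the 1 gene of the 9 without overlap and lower in swimming hearts, against 1.58% of all genes. Srsf11 had 6.64, 7.17, 7.05 and 8.76 FPKM in swimming hearts and 1.92, 5.72, 6.99 and 2.91 FPKM in sedentary hearts (limma adjusted p = 0.665). Srsf1, the founding SR protein, had 1.92 ± 0.291 FPKM in swimming and 1.08 ± 1.00 FPKM in sedentary hearts, and sedentary replicate 1 was at 0.0467 FPKM.

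Of 12 other genes for SR-related proteins, all tested, 0 passed and 0 had an unadjusted p below 0.05 (median log2 fold change -0.01). Tra2b, a splicing activator, had 10.3 ± 1.41 FPKM in swimming and 11.4 ± 0.867 FPKM in sedentary hearts. Acin1 had 5.71 ± 0.490 and Srrm2 6.74 ± 0.727 FPKM in swimming hearts, against 4.88 ± 0.645 and 7.39 ± 0.742 FPKM in sedentary hearts. Of 13 genes for other splicing kinases, phosphatase subunits and the importer of SR proteins, 0 passed and 0 had an unadjusted p below 0.05 (median 0.02). Among them Prpf4b, a nuclear kinase of the spliceosome, had 6.48 ± 0.189 FPKM in swimming and 6.16 ± 0.293 FPKM in sedentary hearts, and Ppp1r10, a regulatory subunit of protein phosphatase 1, had 5.20 ± 2.05 FPKM in swimming and 7.28 ± 2.05 FPKM in sedentary hearts. Cdk12, a kinase of RNA polymerase II, had 5.64 ± 0.879 FPKM in swimming and 6.06 ± 0.486 FPKM in sedentary hearts.

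The complex that recognises the 3' splice site, where RBM5 and its relatives act, also had 0 of 17 genes past the threshold (median 0.02), and 3 had an unadjusted p below 0.05. Snrpb, a core protein of the splicing particles, had 26.7, 26.2, 25.7 and 24.2 FPKM in swimming hearts and 27.7, 31.0, 31.5 and 31.6 FPKM in sedentary hearts (limma adjusted p = 0.559). U2af2, which binds the polypyrimidine tract, had 12.5, 12.5, 13.5 and 12.4 FPKM in swimming hearts and 11.004, 8.09, 11.2 and 11.6 FPKM in sedentary hearts (limma adjusted p = 0.658), and Sf3a3 had 5.56 ± 0.223 FPKM in swimming and 5.05 ± 0.165 FPKM in sedentary hearts. In these 3 genes the groups did not overlap, Snrpb being lower and U2af2 and Sf3a3 higher in swimming hearts, as in 1 and 2 of 17 genes against 1.58% and 3.24% of all genes.

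Decay of transcripts with an early stop codon was covered by 14 genes, of which 0 passed (median 0.02) and 2 had an unadjusted p below 0.05. Smg6, the endonuclease of the pathway, had 4.63, 5.88, 4.68 and 5.62 FPKM in swimming hearts and 3.32, 3.49, 3.77 and 3.34 FPKM in sedentary hearts (log2 fold change 0.51, SE 0.0922, limma adjusted p = 0.434). Smg1, the kinase that phosphorylates UPF1, had 3.76, 5.25, 5.53 and 4.29 FPKM in swimming hearts and 6.53, 6.07, 5.98 and 6.75 FPKM in sedentary hearts (log2 fold change -0.40, SE 0.117, limma adjusted p = 0.608). Neither overlapped, and they lay on opposite sides. In all, 2 of the 14 genes lay above and 2 below without overlap, the other two being Casc3 (7.17 ± 0.318 FPKM in swimming and 6.72 ± 0.0590 FPKM in sedentary hearts) and Eif4a3 (13.8 ± 0.148 FPKM in swimming and 14.4 ± 0.531 FPKM in sedentary hearts), both named after their values were seen. Over all genes 3.24% lay above and 1.58% below without overlap. Upf3b had 2.35 ± 0.212 FPKM in swimming and 1.99 ± 0.204 FPKM in sedentary hearts.

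Genes whose splicing is known, mainly from human cells, to respond to RBM5, RBM6, RBM10 or SRPK1 are Fas, Casp2, Cflar, Numb and Vegfa. As gene sums 0 of 5 passed and 0 had an unadjusted p below 0.05. Numb, an inhibitor of Notch signalling, had 2.23 ± 0.490 FPKM in swimming and 2.60 ± 0.296 FPKM in sedentary hearts. The death receptor gene Fas had 7.96 ± 2.17 FPKM in swimming and 7.17 ± 1.03 FPKM in sedentary hearts, and Casp2, an apoptosis protease gene, had 2.24 ± 0.315 FPKM in swimming and 2.34 ± 0.616 FPKM in sedentary hearts. Of their 26 listed transcripts, 10 were tested, 0 passed (lowest limma adjusted p = 0.878), 0 had an unadjusted p below 0.05, and 0 were free of overlap.

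**Figure D5:**
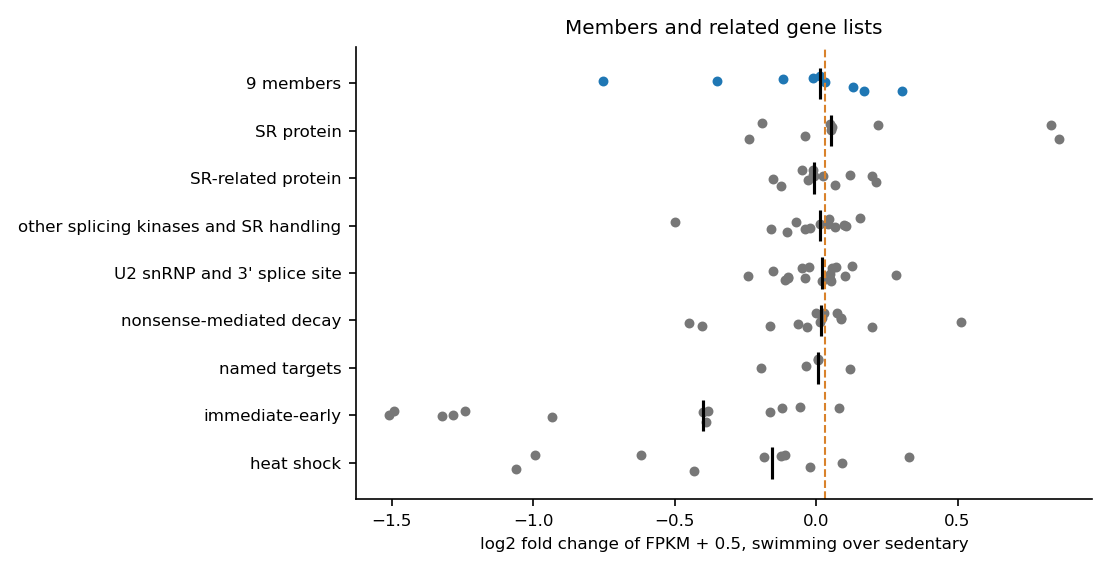
Log2 fold change, swimming over sedentary, on the scale of log2(FPKM + 0.5) (horizontal axis) of the 9 members (blue) and of the tested genes of each related list (grey), with the median of each row (bar) and the median of all genes at 0.03 (dashed line). The medians of the splicing lists lie between -0.01 and 0.05, that of the immediate-early list at -0.40 and that of the heat shock list at -0.15.

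Stress of the tissue was described by immediate-early and heat shock genes. Of 13 immediate-early genes tested 0 passed and 1 had an unadjusted p below 0.05, 12 had a negative log2 fold change, against 41.3% of all genes, and the median was -0.40. Sedentary replicate 3 had the highest value in all of them but Ier3, which was highest in sedentary replicate 1 at 21.5 FPKM. Sedentary replicate 4 was high in some, such as Egr3 and Nr4a3, and was the lowest library for Jun at 12.9 FPKM. Egr3 was at 0.409, 0.919, 0.329 and 0.00435 FPKM in swimming hearts and at 0.409, 0.533, 6.93 and 4.35 FPKM in sedentary hearts. Egr2 was at 0 to 0.339 FPKM in swimming hearts and reached 6.83 FPKM in sedentary replicate 3, and Nr4a3 had 1.16 ± 0.637 FPKM in swimming and 3.78 ± 2.03 FPKM in sedentary hearts. Nr4a3 was at 0.563, 1.66, 1.75 and 0.649 FPKM in swimming hearts and at 2.25, 1.83, 5.66 and 5.40 FPKM in sedentary hearts. It was the 1 gene of the 13 without overlap and lower in swimming hearts, against 1.58% of all genes. The part of the immediate-early genes in the values of the members was not tested. Of 10 heat shock and temperature-responsive genes tested 0 passed and 2 had an unadjusted p below 0.05. In 8 of the 10 the log2 fold change was negative, against 41.3% of all genes, and the median was -0.15. The 2 with an unadjusted p below 0.05 were the cold-inducible RNA-binding protein genes Rbm3, with 9.77, 13.7, 12.0 and 9.38 FPKM in swimming and 15.6, 15.5, 14.5 and 14.9 FPKM in sedentary hearts, and Cirbp, with 0.928, 1.04, 1.01 and 1.06 FPKM in swimming and 0.543, 0.681, 0.923 and 0.693 FPKM in sedentary hearts. Neither overlapped, and Rbm3 was lower and Cirbp higher in swimming hearts (limma adjusted p = 0.586 and 0.608), which is 1 of 10 genes on each side, against 1.58% of all genes lower and 3.24% higher. The mitochondrial chaperonin gene Hspd1 had 81.6 ± 2.02 FPKM in swimming and 88.3 ± 5.24 FPKM in sedentary hearts. The inducible chaperone genes Hspa1a, Hspa1b and Dnajb1, named after their values were seen, were high in sedentary replicates 3 and 4, like Egr3. Hspa1a was at 0.841, 1.44, 2.06 and 0.648 FPKM in swimming hearts and at 0.953, 0.970, 9.64 and 6.18 FPKM in sedentary hearts. Hspa1b did not exceed 4.29 FPKM in swimming hearts and had 13.8 and 8.33 FPKM in sedentary replicates 3 and 4, and Dnajb1 did not exceed 5.61 FPKM in swimming hearts and had 15.4 and 9.25 FPKM in the same sedentary replicates. In sedentary replicates 1 and 2 all 3 genes lay between the lowest and the highest swimming value. The part of the heat shock genes in the values of the members was not tested.

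The libraries were hearts by their markers, with 10 of 10 ventricular cardiomyocyte genes above 0 in every library. Their sum was between 10219 and 11355 FPKM in swimming and between 9352 and 10305 FPKM in sedentary hearts. Actc1 weighed heavily in it, with 3259 ± 289 FPKM in swimming and 2180 ± 857 FPKM in sedentary hearts. The log2 fold change was negative for 7 of the 10 genes, against 41.3% of all genes. Mybpc3 was at 49.1, 1.76, 1.03 and 1.73 FPKM in swimming and at 35.0, 46.9, 0.791 and 0.870 FPKM in sedentary hearts. The sum of 6 macrophage genes was between 187.9 and 208.0 FPKM in swimming and between 150.7 and 160.9 FPKM in sedentary hearts, with no overlap, and mt-Co1 made up 5.99% to 12.6% of the FPKM of swimming and 13.4% to 13.7% of that of sedentary libraries. Lyz2 weighed heavily in the macrophage sum, with 112.7 ± 6.27 FPKM in swimming and 92.2 ± 4.86 FPKM in sedentary hearts. Of the 6 macrophage genes, 4 lay above without overlap, against 3.24% of all genes, while Cd68 and Csf1r overlapped. The log2 fold change was negative for 0 of 6 fibroblast genes, against 41.3% of all genes. The part of any of these in the lower Clk1 and Rbm5 values was not tested. Liver and adipocyte genes were high in sedentary replicate 4, where the 4 liver genes summed to 39.8 FPKM, against 0.579 FPKM or less elsewhere. Without that library the log2 fold changes were -0.38 for Clk1 and -0.76 for Rbm5. Read numbers are not in the table, and the depth is unknown. The ratios of low values between libraries put swimming replicate 2 at 1.64 and the other 7 libraries at 0.871 to 1.00 times a common depth, a weak estimate since 4.23% to 7.72% of the ratios stood at the best step. Skeletal muscle genes summed to 0.564 FPKM or less in every library. The 4 atrial genes summed to 66.3 to 125.5 FPKM in swimming and 27.1 to 105.7 FPKM in sedentary hearts, most of it from Nppa. Myl4 was at 0.471, 6.96, 5.13 and 0.101 FPKM in swimming hearts and did not exceed 0.489 FPKM in sedentary hearts. Myl7 and Sln were too low to enter the fit.

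Genes whose values ran most like those of Clk1 and Rbm5 over the 8 libraries were ranked by Pearson's r of log2(FPKM + 0.5). For Clk1 these were Fat1 (r = 0.958), Mrps23 (0.952), Slc16a1 (0.946), Ppp2r5a (0.933) and Uba1 (0.932), of which the lactate transporter gene Slc16a1 had 64.5 ± 1.35 FPKM in swimming and 72.6 ± 0.572 FPKM in sedentary hearts. For Rbm5 they were Rbm47 (r = 0.969), the DNA polymerase gene Polb (0.949), Washc5 (0.948), Amacr (0.942) and Fam210a (0.932). Rbm47 had 0.550 ± 0.0705 FPKM in swimming and 0.760 ± 0.0964 FPKM in sedentary hearts. The libraries share their groups and depth in all of these correlations. After removal of the group means, r was between 0.628 (Ppp2r5a) and 0.905 (Mrps23) for Clk1 and between 0.628 (Amacr) and 0.930 (Rbm47) for Rbm5. These genes were picked for high r in the same libraries, which also raises r within the groups, so nothing is read from it.
Among the 36 pairs of members, r was highest for Rbm6 with Rbm10 (0.852, and 0.873 after removal of the group means) and for Clk3 with Clk4 (0.782 and 0.834). For Clk1 with Rbm5 it was 0.750 over all libraries and -0.398 after removal of the group means, so that within the groups libraries with more Clk1 did not hold more Rbm5. These values describe 8 libraries and carry no test.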

How the data were processed

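RNA from 4 heart samples of swimming and 4 of sedentary mice was measured by RNA sequencing after removal of ribosomal RNA, per the labels' protocols. The deposited table gives FPKM per transcript in each library, made by the authors on build mm10. The submitters' processing notes name HISAT2 and STAR 2.5.1a as well as Salmon 0.8.2, Subread and its featureCounts 1.4.6-p5, without saying which of them made the FPKM. Transcripts were named with GENCODE M21 and summed per gene, and 5427 transcripts assembled by the authors were left out of the sums. These held 11.3% to 12.5% of the FPKM of each library. Gene sums and shares are therefore of named transcripts only. Genes and transcripts with a mean of at least 0.5 FPKM were fitted in R 4.3.3 by limma, version 3.58.1, on the scale of log2(FPKM + 0.5) (empirical Bayes with a trend, two-sided, Benjamini-Hochberg adjustment over the whole table). The fit was tested on simulated data. Values in parentheses after a fold change are standard errors.

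Members and related lists were chosen with earlier results of these data known. The text names the 9 members, up to 3 genes of each list with the smallest p-values, and the 5 genes most alike in pattern to Clk1 and to Rbm5. Proteins were translated from the annotated transcripts and aligned globally. Alternatives were other pseudocounts, filters, scalings and variance settings, a replicate block, and leaving out each library.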

Additional observations from a re-analysis of the deposited data

Results flagged for a closer look

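A library stood far from the other 3 of its group in 5 of 76 sets of values of the members and their transcripts, where chance sets aside about 1 in 20. The decay share of Clk4 was 6.08% in swimming replicate 1 and 9.37% to 10% in the other swimming libraries. The decay share of Srpk1 was 14.8% in sedentary replicate 3 and 9.41% to 10.2% in the other sedentary libraries. Clk2-203 had 0.843 FPKM in sedentary replicate 3, where the others of its group had 0.447 to 0.5 FPKM. Clk3-204 had 1.63 FPKM in swimming replicate 2, where the others had 0.999 to 1.09 FPKM. Srpk2-201 had 11.6 FPKM in sedentary replicate 4, where the others had 12.3 to 12.4 FPKM.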

How the results depend on the processing

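A total of 17 alternatives were run. In each of them 0 members, 0 member transcripts and 0 genes of the related lists passed at a limma adjusted p below 0.05. Clk1 (-0.39 to -0.31) and Rbm5 (-0.84 to -0.65) kept a negative log2 fold change in 17 of 17, and Clk3 (0.20 to 0.40) and Clk4 (0.06 to 0.37) a positive one. The sign turned for Clk2 without sedentary replicate 1, for Srpk1 without swimming replicate 2 or sedentary replicate 1, for Srpk2 with median-of-ratios scaling or without replicate 4 of either group, for Rbm6 without swimming replicate 1 or sedentary replicate 4, and for Rbm10 under 4 settings. Rbm6 and Rbm10 did not reach a filter of 1 FPKM. The 2 genes called over the whole table became 1 with a pseudocount of 0.1, 1 with quantile normalization, and 0 to 5 when a library was left out (0 without swimming replicate 2, where 799 had an unadjusted p below 0.05). The 12 transcripts became 7 with a filter of 1 FPKM and 6 to 26 when a library was left out. Same-numbered libraries of the groups had correlations of -0.054 to 0.0234, and the highest with another number were 0.0206 to 0.0393. The labels do not say whether equal numbers belong together. Correlations this near 0 cannot decide whether such samples were handled together. With the replicate block limma called 0 genes and 0 transcripts, with 651 and 1039 at an unadjusted p below 0.05, and it gave -0.35 for Clk1 and -0.75 for Rbm5. In the main fit the log2 fold changes were -1.24 (SE 0.295) for Rbm5-210 and -0.73 (SE 0.453) for Rbm5-208, a coding transcript whose groups overlapped. With a pseudocount of 0.1 they were -2.12 for Rbm5-210 and -1.53 for Rbm5-208. Both transcripts were listed at 0 in some swimming libraries, where a small pseudocount weighs most. The difference in the decay share of Rbm5 was -15.8 percentage points, -18.9 to -12.0 when a library was left out, and 0 by construction where decay transcripts were counted as coding. For Clk1 it was -13.1, and 1.45 without swimming replicate 3. Genes at an unadjusted p below 0.05 split into 576 higher and 284 lower in swimming hearts, and into 354 and 486 with median-of-ratios scaling and 423 and 391 with quantile normalization. The causes were not tested. Low transcripts are limited by the unknown depth.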

Other observations

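Among transcripts too low to enter the fit, a pair from Srpk2 is named here after its values were seen. Srpk2-207, a short coding transcript, was at 0.0444, 0, 0.0644 and 0 FPKM in swimming hearts and at 0.130, 0.138, 0.0922 and 0.120 FPKM in sedentary hearts, and the groups did not overlap. Srpk2-208 was listed at 0.206 and 0.269 FPKM in swimming replicates 2 and 4, and the other 6 libraries were at 0. Such values are too low for the unknown depth to support a comparison.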
